A study of Rattus norvegicus with 10 samples.

Results

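The miR-34 and miR-449 miRNAs of the rat heart were described in a microarray comparison of a DEX group with a Control group. The family had 7 members among the 761 miRNAs on the chip: rno-miR-34a-5p, rno-miR-34a-3p, rno-miR-34b-5p, rno-miR-34b-3p, rno-miR-34c-5p and rno-miR-34c-3p, the arms of 3 hairpins, and rno-miR-449a-5p. The species prefix is left out from here on. Members were chosen by name, as the relatives and partner arms of miR-34b-3p, which had itself been selected on its difference between DEX and Control in these arrays. The DEX against Control values of the family are therefore given as a description, without p-values. Male Wistar rats of 250 to 350 g, whose age was not given in the sources used here, provided left ventricular RNA, 5 rats per group. Rats of the DEX group received dexmedetomidine, an alpha2 adrenergic receptor agonist used as a sedative, for 30 min into a tail vein, as a loading and then a maintenance dose, and rats of the Control group received saline at the same rate. Hearts were sampled after a short saline washout and without ischemia. Each rat gave 1 array.

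A miRNA guides the silencing complex to target mRNAs mainly through its seed, which is bases 2 to 8 from the 5′ end. The hairpin precursor is cut into a 5p and a 3p arm, and the arm that is kept in the complex does most of the silencing. The miR-34 genes are transcriptional targets of p53, and their 5p arms repress cell cycle and survival genes such as those of cyclins, CDK4, CDK6, MET, BCL2 and SIRT1. In the heart, miR-34a is known for rising with age and after injury. miR-34b, miR-34c and the miR-449 cluster are known above all from multiciliated epithelia and the testis.

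The mature sequences are shown because the family falls into seed groups that cut across the hairpins. All 7 members were found among the RefSeq mature miRNAs (build GRCr8), and the seed is in capitals. The first group shares the seed of the 5p arms, which among the 693 mature names in the table was also carried by miR-449c-5p.
miR-34a-5p: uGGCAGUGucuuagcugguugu
miR-34b-5p: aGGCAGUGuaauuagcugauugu
miR-34c-5p: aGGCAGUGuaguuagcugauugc
miR-449a-5p: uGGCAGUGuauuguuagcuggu
miR-449c-5p: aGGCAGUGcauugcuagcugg
The second group holds the 3p arms of miR-34b and miR-34c, which shared their seed with each other and with no further mature name in the table. The 3p arm of miR-34a had a seed of its own.
miR-34b-3p: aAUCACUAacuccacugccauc
miR-34c-3p: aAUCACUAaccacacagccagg
miR-34a-3p: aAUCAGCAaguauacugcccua
The pair of 3p arms from miR-34b and miR-34c was identical over the first 10 bases and at 17 of 22 bases in all. Written with the miR-34b-3p base first and positions counted from the 5′ end, they differed by U11C, C12A, U16A, U21G and C22G. miR-34b-5p and miR-34c-5p were identical at 21 of 23 bases and differed by A11G and U23C. Probes for such close relatives can capture some of each other's target, and how far this happened on the chip was not tested.

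The miR-34b and miR-34c hairpins are shown since their arms carry the comparison below, with both mature arms in capitals. They lie on the minus strand of chromosome 8 with 441 bases between them, at chr8:60306609-60306692 and chr8:60306091-60306167. The miR-34c hairpin is inside the annotated span of Hoatz, a gene for a cilia and flagella protein, and the miR-34b hairpin overlaps that span only in part; whether they fall in an exon or an intron was not given in the table used here.
Mir34b: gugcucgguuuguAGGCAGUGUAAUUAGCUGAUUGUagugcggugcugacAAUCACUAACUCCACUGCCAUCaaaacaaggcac
Mir34c: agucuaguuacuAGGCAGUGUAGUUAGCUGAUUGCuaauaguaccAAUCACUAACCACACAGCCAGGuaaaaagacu
The miR-34a hairpin lies at chr5:165815952-165816053 on the plus strand, inside the span of the long non-coding RNA gene LOC103692514. The miR-449a hairpin lies at chr2:46403910-46404000 on the plus strand, inside the span of LOC134485839 and next to Gpx8, with the miR-449c hairpin 1436 bases away.

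Values are normalized signals: spot intensity minus the mean of blank spots, scaled so that the median over the detected miRNAs of each array was 25. A miRNA was called detected where the authors gave it a score. Apart from 2 of 7610 calls, these were the spots that exceeded the blank mean by more than 2 SD of the blank spots. An undetected miRNA took the lowest detected signal of that array (the floor, 3.64 to 5.09). Between 483 and 533 miRNAs were detected per array. All 6 cardiac muscle miRNAs were detected on every array, with a summed signal of 32202 to 46018 in Control and 31101 to 45001 in DEX; these are the myomiRs of heart tissue, which the label gives. Of the 503 miRNAs detected on at least 5 arrays, limma called 0 at an adjusted p under 0.05 (background 0.00%). Without adjustment 15 had p under 0.05. Control 1 to 4 shared slide 1, Control 5 and DEX 1 to 3 shared slide 2, and DEX 4 and 5 shared slide 3. On slide 3 the spots without a probe were bright, with medians 37.7 (DEX 4) and 28.8 (DEX 5) intensity units over blank against -0.80 to 10.2 on the other 8 arrays. DEX 1 was a dim array, with the lowest blank mean, 93.7 intensity units. Its scaling factor was 1.45, against 0.47 to 0.71 on the other arrays. Fewer cells of a type and less RNA per cell cannot be told apart in such tissue samples.

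Of the 7 members, miR-34a-5p, miR-34b-3p, miR-34c-5p and miR-34c-3p were detected on all 10 arrays, miR-34b-5p on 9, miR-449a-5p on 5 and miR-34a-3p on 1. The 6 members other than miR-34a-3p entered the comparison. Of these, 3 had a positive and 3 a negative log2 difference, and 0 were called. Their median log2 difference was 0.04, equal to the 0.04 over all 503 tested miRNAs. On the normalized signal used here, only miR-34b-3p had groups that did not overlap, with every DEX value below every Control value. Among all tested miRNAs, 2 of 503 (0.398%) did so in that direction, the other being miR-155-3p, which averaged 13.9 ± 3.72 over the Control and 8.24 ± 1.10 over the DEX arrays (SD, n = 5). Because miR-34b-3p was selected on this contrast, nothing is read from that share.

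**Figure D1:**
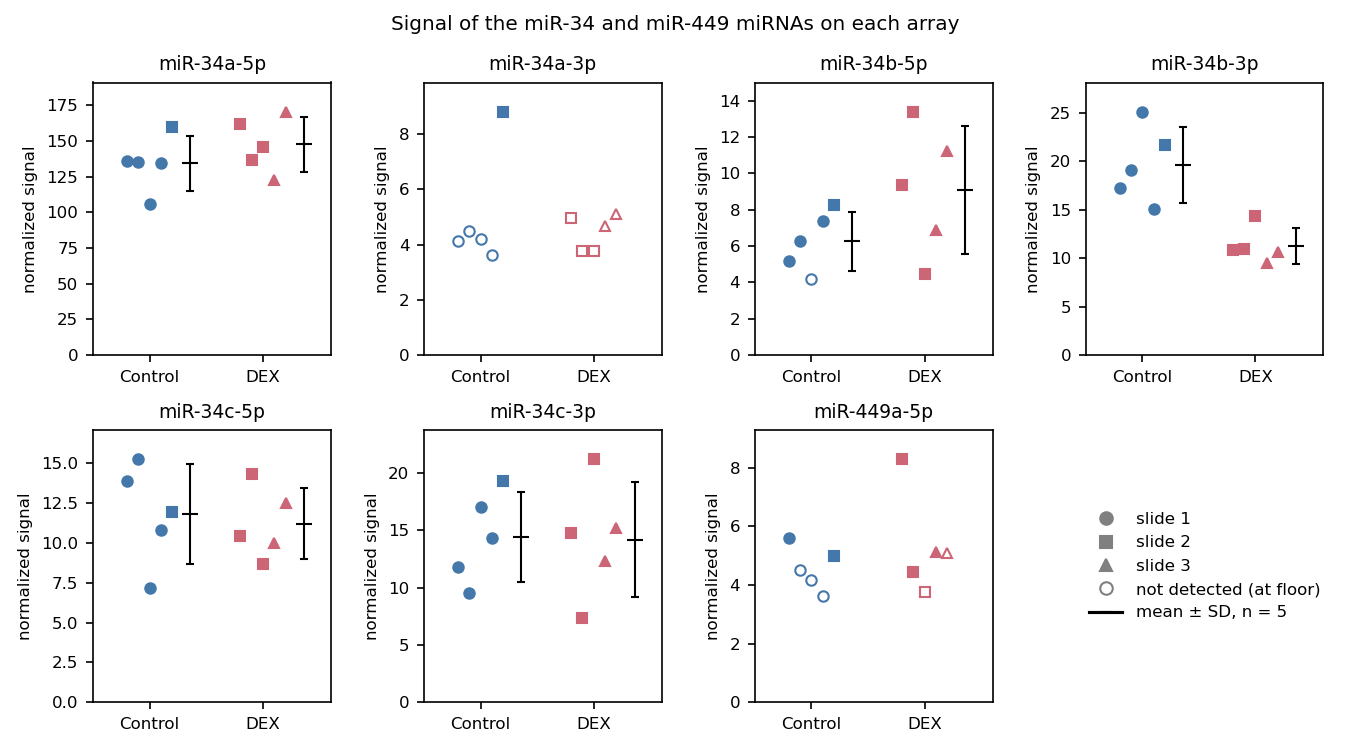
Normalized signal of each family member on each array (vertical axes, linear and starting at 0), with Control and DEX side by side, marker shapes for the 3 slides, open markers for arrays at the floor, and mean ± SD (n = 5) for members detected on at least 9 arrays. The DEX values of miR-34b-3p, 9.49 to 14.4, lie below its Control values, 15.1 to 25.1, and the groups overlap for every other member.

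miR-34a-5p, the p53-responsive member with an age-related rise known from the heart, was clearly detected in every ventricle. Its normalized signal was 136, 135, 106, 135 and 159.9 in Control 1 to 5, and 162, 137, 146, 123 and 171 in DEX 1 to 5. The ranges overlapped over most of their length, with Control 3 lowest and DEX 5 highest. The Control mean was 134 ± 19.2 and the DEX mean 148 ± 19.3 (SD, n = 5), a log2 difference of 0.14 ± 0.15 (SE), smaller than the SD between arrays of 0.20 on the log2 scale. With normexp background correction it was 0.39. Its spot stood 51.3 to 77.0 blank SDs above blank, farther than that of any other member. With slide as a term in the fit the log2 difference was -0.11, which rests on the single Control array of slide 2, and without scaling between arrays it was -0.07; the median over all tested miRNAs moved in these fits too, from 0.04 to -0.19 and -0.16. The passenger arm miR-34a-3p was detected on Control 5 only, at 8.81, and lay at the floor on the other 9 arrays, so no difference was computed for it.

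miR-34b-5p, the 5p arm of the hairpin that also gives miR-34b-3p, was weakly detected. Its normalized signal was 5.18, 6.24, 4.18, 7.39 and 8.23 in Control 1 to 5, where the value of Control 3 is the floor. In DEX 1 to 5 it was 9.33, 13.4, 4.45, 6.87 and 11.2. DEX 1, 2 and 5 lay above every Control array, while DEX 3 lay among the lowest. The means were 6.24 ± 1.63 and 9.05 ± 3.52 (SD, n = 5), and the log2 difference of 0.48 ± 0.29 (SE) was smaller than the SD between arrays of 0.52. With slide as a term in the fit the difference was -0.0016, which again rests on the single Control array of slide 2. The median over all tested miRNAs was -0.19 in that fit, against 0.04 as reported. The log2 difference was 0.04 with normexp and 0.06 without background correction. With a detection limit of 3 SD, miR-34b-5p was detected on 5 arrays instead of 9.

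miR-34b-3p was lower on all 5 DEX arrays than on any Control array. Its normalized signal was 17.3, 19.1, 25.1, 15.1 and 21.7 in Control 1 to 5, and 10.8, 10.98, 14.4, 9.49 and 10.6 in DEX 1 to 5. The highest DEX array, DEX 3 (14.4), was just below the lowest Control array, Control 4 (15.1). The blank SD was 1.81 to 2.53 signal units per array, so this gap is small. On the authors' scores DEX 3 tied with Control 1 and Control 4 at 11. The means of the normalized signal were 19.7 ± 3.91 and 11.3 ± 1.83 (SD, n = 5), a DEX over Control ratio of 0.576 and a log2 difference of -0.80 ± 0.17 (SE). This exceeded the SD between arrays of 0.26 on the log2 scale. The SD of miR-34b-3p was below the median, 0.35, of the 100 tested miRNAs with a mean log2 signal within 0.5 of its own. The selection of miR-34b-3p weighed its difference against its spread on these same arrays, which favours a small SD. Nothing is therefore read from either comparison with an SD. Within slide 2, DEX 1 to 3 (mean 12.05 ± 2.001 SD, n = 3) were below the 1 Control array at 21.7, a log2 difference of -0.86, where the median over all tested miRNAs was -0.19. Leaving out slide 3 gave -0.70.

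The size of the miR-34b-3p difference depended on the background correction. Its spot stood only 4.14 to 12.2 blank SDs above blank. The log2 difference was -0.15 with normexp correction from the local background column, which adds an offset of 50 intensity units, and -0.11 with no correction, against -0.80 with blank subtraction. With no correction the blank level, 93.7 to 185 intensity units per array, stays in every value. A constant added to a dim spot, whether this level or the offset, pulls its ratios towards 1 by construction. Normexp also subtracts the local background, and the part of that step in the change was not tested. The sign was the same under all 3 background treatments. On DEX 4 and 5 the miR-34b-3p spots, at 20.3 and 18.3 intensity units over blank, were below the median of spots without a probe, and on the other 8 arrays they were above it. The spots of miR-34b-5p, miR-34c-5p and miR-34c-3p were below that median on DEX 4 and 5 too, as were 204 of 483 and 195 of 514 detected miRNAs, so detection over blank on slide 3 is less firm for these arms, and the ratios among them carry the same limit. The part of this slide 3 background in the difference was not tested beyond leaving those arrays out.

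**Figure D2:**
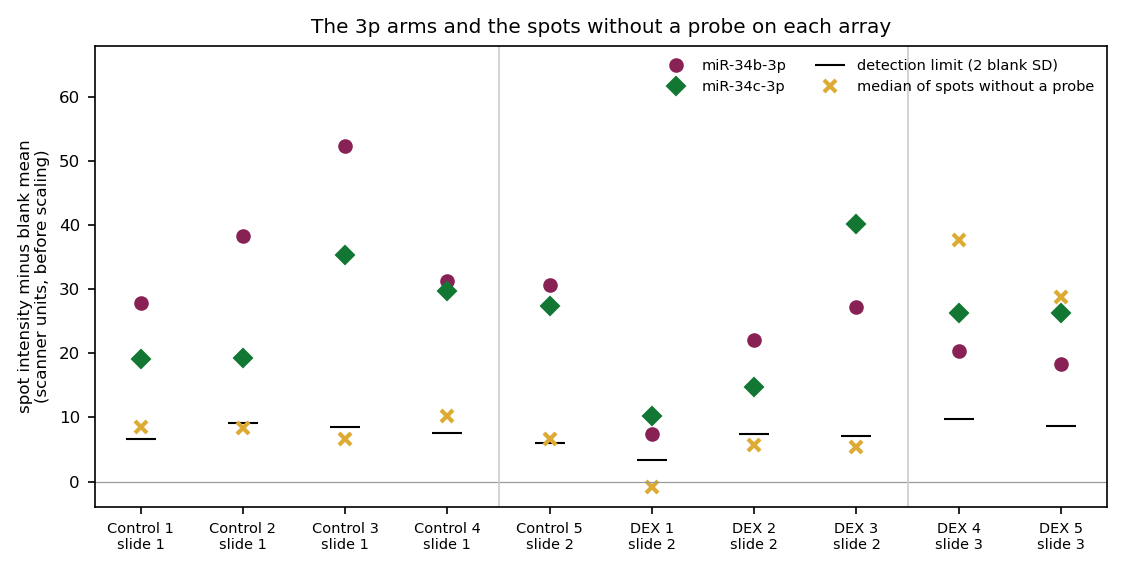
Intensity over the blank mean in scanner units before scaling (vertical axis) for miR-34b-3p and miR-34c-3p on each array, with the detection limit and the median of the spots without a probe. On DEX 4 and DEX 5 the spots without a probe have medians of 37.7 and 28.8, above both 3p arms.

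**Figure D3:**
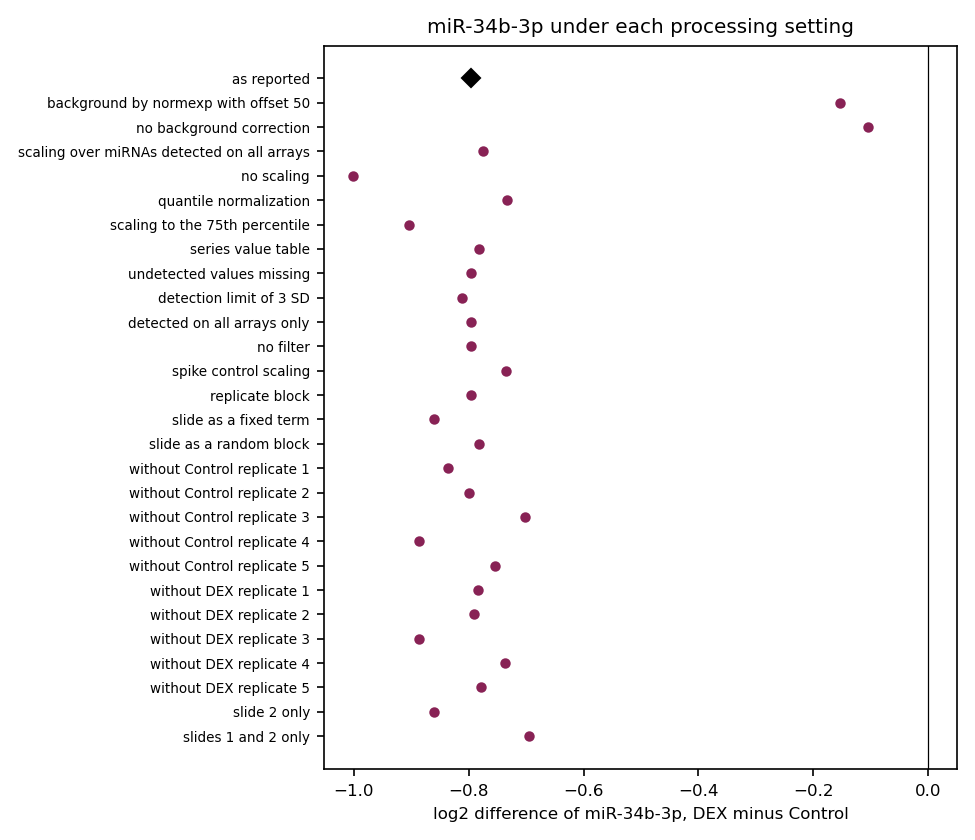
Log2 difference of miR-34b-3p, DEX minus Control (horizontal axis), as reported (diamond) and under each of 27 processing settings (circles). The values run from -1.001 without scaling between arrays to -0.11 without background correction, and all lie below 0. Settings that leave out arrays could not reverse the sign, since every DEX value lay below every Control value.

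miR-34c-3p carries the same seed as miR-34b-3p, and its groups overlapped. Its normalized signal was 11.8, 9.57, 17.0, 14.3 and 19.3 in Control 1 to 5, and 14.8, 7.32, 21.2, 12.3 and 15.2 in DEX 1 to 5. The lowest and the highest array were both DEX arrays, DEX 2 and DEX 3. The means were 14.4 ± 3.89 and 14.2 ± 5.03 (SD, n = 5), a log2 difference of -0.06 ± 0.27 (SE), within the SD between arrays of 0.49. With slide as a term in the fit the difference was -0.55, which again sets DEX 1 to 3 against Control 5 alone, the highest Control array. The median over all tested miRNAs was -0.19 in that fit. The log2 ratio of miR-34b-3p over miR-34c-3p on the same array is free of array scaling. It was 0.55, 0.997, 0.56, 0.07 and 0.17 in Control 1 to 5 and -0.45, 0.58, -0.56, -0.38 and -0.52 in DEX 1 to 5, so that DEX 2 stood among the Control arrays and the other DEX arrays below them. The mean ratio moved by -0.73 ± 0.27 (SE, n = 5 per group), by -0.31 within slide 2, and by -0.091 or -0.11 with normexp or without background correction. The zero of such a ratio between probes has no meaning, and only its shift between groups can be read.

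miR-34c-5p, which shares the miR-34a-5p seed, also differed between the groups by less than the spread between arrays. Its normalized signal was 13.9, 15.2, 7.18, 10.8 and 11.9 in Control 1 to 5, and 10.4, 14.3, 8.67, 9.97 and 12.5 in DEX 1 to 5. The DEX range lay wholly inside the Control range. The means were 11.8 ± 3.10 and 11.2 ± 2.22 (SD, n = 5), with a log2 difference of -0.05 ± 0.21 (SE), within the SD between arrays of 0.36. Its sign and that of miR-34c-3p changed when single arrays were left out, over -0.22 to 0.05 and -0.23 to 0.16.

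The arms of each hairpin can be set against each other on the same array. The log2 ratio of miR-34b-3p over miR-34b-5p was 1.03 to 2.59 in Control and -0.29 to 1.69 in DEX, and its mean shifted by -1.27 ± 0.43 (SE, n = 5 per group), more than the SD between arrays of 0.68. The highest of these values, 2.59 on Control 3, is only a lower bound, since miR-34b-5p was undetected there and set to the floor; with undetected values left missing the shift was -1.04. DEX 3 was the DEX array that lay among the Control arrays. The log2 ratio of miR-34c-3p over miR-34c-5p ran from -0.67 to 1.25 in Control and from -0.96 to 1.29 in DEX, with a shift of -0.01 ± 0.50. For the 5p arms of miR-34b and miR-34c, which are close in sequence, the log2 ratio of miR-34b-5p over miR-34c-5p shifted by 0.53 ± 0.25. With slide as a term it shifted by 0.13, which rests on the single Control array of slide 2. The log2 ratio of miR-34a-5p over miR-34c-5p shifted by 0.19 ± 0.20. These shifts were computed on the same contrast that selected miR-34b-3p and carry no test. With normexp or without background correction the shift between the arms of miR-34b was -0.19 or -0.16.

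**Figure D4:**
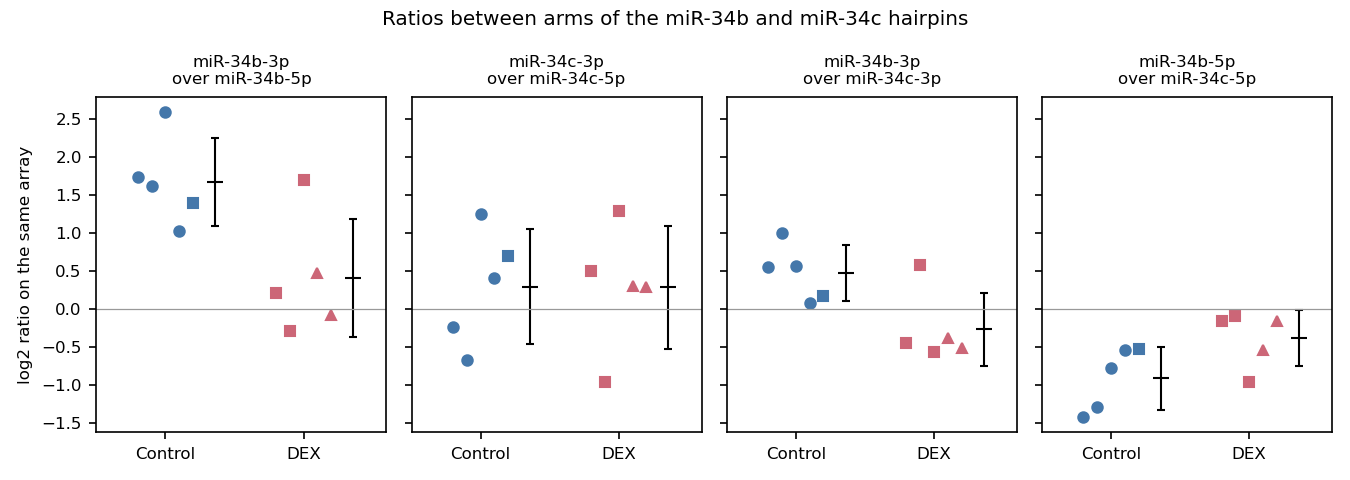
Log2 ratio of one arm to another on the same array (vertical axis) for 4 pairs, with Control and DEX side by side, marker shapes for slides 1 (circles), 2 (squares) and 3 (triangles), and mean ± SD (n = 5). The ratio of miR-34b-3p over miR-34b-5p lies at 1.03 to 2.59 in Control, where the highest point is a lower bound because miR-34b-5p was at the floor, and at -0.29 to 1.69 in DEX, while the ranges of miR-34c-3p over miR-34c-5p cover each other.

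miR-449a-5p, a relative from multiciliated epithelium, was at the edge of detection. It was detected on Control 1 and 5 at 5.59 and 5.005 and on DEX 1, 2 and 4 at 8.29, 4.45 and 5.13, and the other 5 arrays were at the floor. The log2 difference, 0.19 ± 0.21 (SE), was -0.02 without scaling between arrays and 0.01 without DEX 1. It counts the floors as values, and these were 3.64 to 4.51 over the Control and 3.77 to 5.09 over the DEX arrays. With undetected values left missing the difference was 0.12. On DEX 4 the miR-449a-5p spot was below the median of spots without a probe. With a detection limit of 3 SD, miR-449a-5p was detected on 1 array. The seed relative miR-449c-5p was detected on 3 Control arrays and 1 DEX array, with 4.92 as its highest detected signal, and was not tested.

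**Figure D5:**
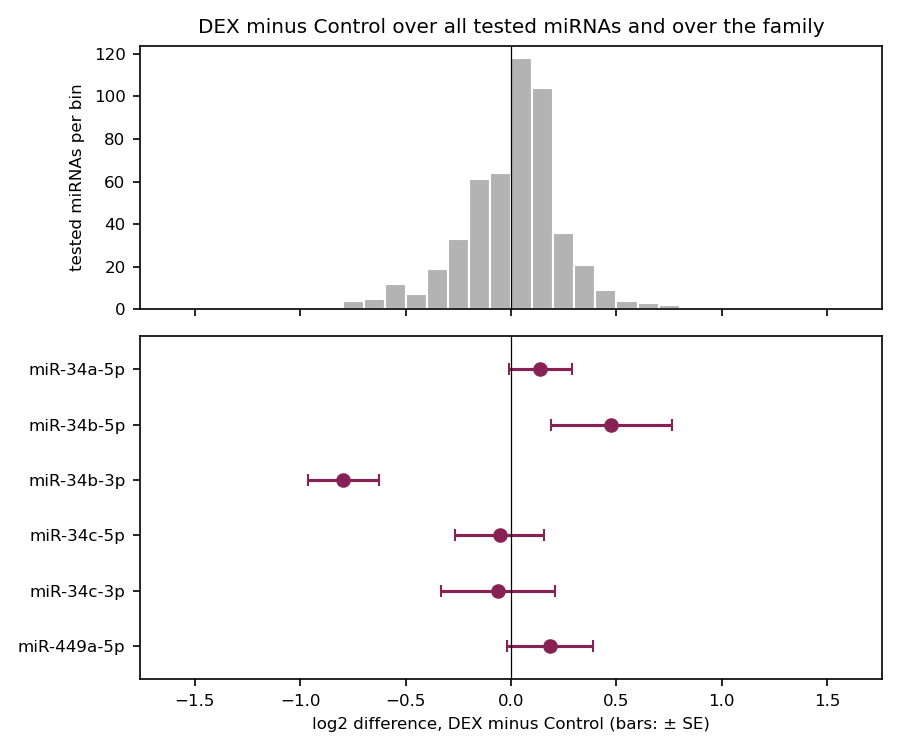
The upper panel counts the 503 tested miRNAs by their log2 difference, DEX minus Control, and the lower panel shows the same difference (horizontal axis, bars ± SE) for the 6 tested family members. miR-34b-3p stands at -0.80, miR-34b-5p at 0.48 and the other 4 members between -0.06 and 0.19.

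Variation among the members over the arrays was described for those whose groups overlapped. Among miR-34a-5p, miR-34b-5p, miR-34c-5p and miR-34c-3p, 6 pairs were correlated over the 10 arrays, after their values had been seen. The strongest relation was an opposite one between the arms of miR-34c (Pearson r = -0.68, permutation p = 0.023, Benjamini-Hochberg adjusted p = 0.14; Spearman rho = -0.70, permutation p = 0.031, adjusted p = 0.19). No pair passed the adjusted threshold. Without the 2 arrays farthest from the median of miR-34c-5p it was -0.67, and it was -0.95 and -0.82 within slides 1 and 2 (n = 4 arrays each; slide 3 held 2). Without scaling between arrays the same correlation was 0.23, so its direction depended on removing array brightness. The 5 other pairs had r from -0.45 to 0.58. Their r changed with the processing as well, to between -0.06 and 0.87 without scaling and between -0.50 and 0.30 on the authors' scores, where arrays without a score were left out. For miR-34b-3p no pooled correlation is given, because its values fell into separate groups.

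For the members detected on all arrays other than miR-34b-3p, the miRNAs whose log2 signal ran most like theirs over the 10 arrays were looked up among 401 others detected on all arrays. For miR-34a-5p these were miR-27b-3p, miR-20b-5p and miR-19b-3p, with r of 0.98, 0.96 and 0.95. For miR-34c-5p the nearest were miR-1843b-3p, miR-501-5p and miR-203b-5p (r of 0.81, 0.80 and 0.77), and for miR-34c-3p miR-292-5p, miR-7a-1-3p and miR-328a-5p (r of 0.74, 0.67 and 0.63). The points share arrays and scaling factors, and these values are a description.

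The p53 circuit outside the family was covered by a list of 19 miRNAs. Of these 19 miRNAs that are raised by p53, target it or act on its regulators, 16 were tested and 0 were called. The difference was positive for 13 and negative for 3. Without scaling between arrays 1 was positive and 15 negative, but the median over all tested miRNAs then moved from 0.04 to -0.16. The list median stayed 0.09 above that median in both fits. With scaling the list median was 0.13 (range -0.30 to 0.25) beside 0.04 over all tested miRNAs, of which 298 of 503 (59.2%) had a positive difference. miR-192-5p, a p53 target, had -0.30 ± 0.17 (SE). miR-33-5p, which targets p53, had 0.25 ± 0.15, and miR-22-3p had the smallest difference, 0.0001 ± 0.15.

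Markers of the cell types in which the family is abundant or that a heart sample can hold were set beside these values. Of 7 epithelial miRNAs, 4 were tested and 0 called. The summed signal of all 7 was 41.8 to 57.2 in Control and 40.1 to 64.6 in DEX. Undetected values count in this sum at the floor, so part of it is not measured signal. None was undetected on every array, and miR-200c-3p was detected on 1 array and miR-205 on 2. miR-200b-3p had a log2 difference of -0.18 ± 0.27, miR-203a-3p 0.16 ± 0.15 and miR-141-3p -0.07 ± 0.27 (SE). Of 6 cardiac muscle miRNAs, 5 had a positive difference (1 without scaling between arrays) and 0 were called. Without scaling the median over all tested miRNAs was -0.16 instead of 0.04. The cardiac muscle and blood cell list medians stayed 0.10 and 0.08 above it in both fits. Beside this list and the blood cell list below, 298 of 503 tested miRNAs (59.2%) had a positive difference with scaling. miR-208b-3p had 0.36 ± 0.41, miR-1-3p 0.16 ± 0.18 and miR-133b-3p -0.01 ± 0.15. Of 7 blood cell miRNAs, 5 had a positive difference (3 without scaling between arrays), 0 were called, none was undetected, and the summed signal was 1352 to 1829 in Control and 1182 to 2031 in DEX. The red cell miRNAs miR-144-3p and miR-451-5p had differences of -0.75 ± 0.36 and -0.59 ± 0.33, and miR-486 had 0.02 ± 0.14. The part of blood cells in the miR-34b-3p difference was not tested.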

How the data were processed

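Total RNA from the left ventricle of 10 rats was labelled with Cy5 and hybridized to 1-colour 3D-Gene rat miRNA chips. The labels name an RNeasy kit for extraction and the study's methods an miRNeasy kit. The deposited scanner files hold spot intensity at 635 nm on a linear scale, not background-corrected, as the authors' scanner software merged them from 3 gains. The authors' value table holds a score per miRNA, which 99.98% of 5038 values matched within 0.51 as spot minus the trimmed blank mean (5% per end) times 1 factor per array. Software versions were not given in the sources used here.

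Here the same blank subtraction was applied, each array was scaled to a median of 25 over its own detected miRNAs, and log2 was taken. The local background column rose with the spots (r = 0.95 to 0.98 on the log2 scale) and was used only in the normexp alternative (offset 50). Groups and replicate numbers came from the sample titles and slides from the array names. No column of the value table was left unused. A detection on 5 or more arrays was required, and the 503 miRNAs left were fitted with limma 3.58.1 in R 4.3.3 (two-sided, Benjamini-Hochberg, 0.05), tested on simulated data; standard errors are from this fit, except those of ratios, which use the pooled SD. Correlations used 100000 two-sided resamples (10000 for Spearman) in scipy 1.17.1. Array number limits the precision.

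The members, lists and alternatives were chosen with earlier results of these data known. The text names all 7 members, array miRNAs that share a seed with one, up to 3 miRNAs per list (the 2 largest and the 1 smallest log2 difference in size) and the 3 most like each member detected on all arrays, except for miR-34b-3p, whose separate groups would set that order. Named after their values were seen were miR-155-3p, the second miRNA without overlap, and miR-200c-3p and miR-205, the epithelial markers detected on the fewest arrays. Of 761 array names, 685 matched RefSeq mature names. Alternatives covered background, scaling, the value table, detection, the model and leaving out arrays; spike control scaling, leaving out slide 3 and both settings of the correlations were added after seeing the data.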

Additional observations from a re-analysis of the deposited data

Results flagged for a closer look

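Among 24 groups of 5 arrays examined (7 members and 5 ratios, in Control and in DEX), 2 held 1 array far from the others. Chance would give 1.2 for independent groups of measured values. The ratios reuse the members' values and some groups hold floors, so this number is only a rough guide. miR-34a-3p was detected on Control 5 alone, and the gap to the next array took 0.83 of the group's range, above the critical 0.71; the other 4 Control values were floors and not measurements, so a lone detected array passes this rule largely by construction. In DEX the log2 ratio of miR-34b-3p over miR-34c-3p was highest on DEX 2, with a gap of 0.84 of the range; DEX 2 also had the lowest miR-34c-3p signal of all arrays.

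Spots without a probe, which no comparison uses, had medians of 37.7 (DEX 4) and 28.8 (DEX 5) intensity units over blank, above the highest Control array at 10.2. Both arrays were those of slide 3.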

How the results depend on the processing

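No alternative called a miRNA at an adjusted p under 0.05. In each of the 28 limma fits 0 of the tested miRNAs passed (6 to 42 at an unadjusted p under 0.05, smallest adjusted p from 0.061 to 0.998). The methods' t-test also called 0 after adjustment. At the methods' own threshold it kept 8 of the 503 miRNAs tested here, which is not the study's own count. miR-34b-3p kept its sign in all 27 alternatives (-1.001 to -0.11), with -0.15 under normexp and -0.11 without background correction. Because every DEX value lay below every Control value, the fits that left out arrays could not reverse this sign. The other alternatives used the same spots, and some, such as a replicate block, could not change the estimate. The kept sign is therefore no independent support. Under normexp and without background correction in turn, the ratio of miR-34b-3p to miR-34b-5p shifted by -0.19 and -0.16, and its ratio to miR-34c-3p by -0.091 and -0.11. The ratio of miR-34b-5p over miR-34c-5p shifted by 0.047 and 0.053, and the log2 difference of miR-34b-5p itself was 0.037 and 0.058. miR-34a-5p had 0.39 under normexp, -0.067 without scaling and -0.11 with slide as a fixed term. The fit on slide 2 only gives that same estimate by design, since no other slide held both groups. In it miR-34b-5p over miR-34c-5p shifted by 0.13. The median over all tested miRNAs, 0.04 as reported, was -0.16 without scaling and -0.06 with scaling to the 75th percentile. Without scaling the correlation of the miR-34c arms was 0.23. Normexp here adds an offset of 50 intensity units and no correction keeps the blank level, and either constant shrinks ratios of dim spots by construction; other causes, among them that of the miR-34a-5p values, were not tested.

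Same-numbered arrays shared only a number: the correlations of their deviations were -0.07 to 0.13, 1 of 5 over 0.1, and 2 of 5 Control arrays correlated best with their own number. Each number held 1 Control and 1 DEX array, so a replicate block could not change the log2 difference of miR-34b-3p, -0.80 in both fits. With the block limma called 0 miRNAs, and 35 had an unadjusted p under 0.05, against 15 without it.

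With single arrays left out, miR-34b-3p ran from -0.89 to -0.70 and its ratio to miR-34b-5p from -1.59 to -1.04. miR-34a-5p ran from 0.06 to 0.20, miR-34b-5p from 0.31 to 0.71 and miR-449a-5p from 0.01 to 0.30. The signal over background of miR-34b-5p and miR-449a-5p limits their values: at a 3 SD limit they were detected on 5 and 1 arrays.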
